A study of Mus musculus with 10 samples.

Results

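The genes that make, carry and sense retinoic acid were followed across the walls of the mouse heart. The 9 genes were chosen by symbol: Rbp4, Stra6, Rdh10, Dhrs3, Aldh1a1, Aldh1a2, Aldh1a3, Rarb and Crabp2, each through the probes whose RefSeq accession maps to it. Of these, 8 had a probe, with 11 probes in all, of 56605 probes for 22907 named genes in the whole series. Crabp2 was not analysed here. All 8 genes were tested on 10 probes, of 14646 genes and 30234 probes tested in all, and the remaining probe, for a further Rarb transcript, was too dim to be tested.

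Retinoic acid is a signal made from vitamin A. Retinol circulates bound to RBP4, can enter cells through the receptor STRA6, is oxidised to retinal by enzymes such as RDH10 and then irreversibly to retinoic acid by ALDH1A1, ALDH1A2 or ALDH1A3, while DHRS3 turns retinal back into retinol. Retinoic acid binds RAR receptors, which pair with RXR receptors on DNA, and CYP26 enzymes degrade it. In the heart, ALDH1A2 is known from the epicardium, the mesothelial sheet on the outer surface, where it makes retinoic acid during development and after injury.

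The samples are wall pieces from hearts of C57BL/6N mice, taken from the right (RV) or left (LV) ventricle or from the septum between them, to ask which genes differ between these regions. Hearts were perfused with PBS through both ventricles and frozen, and total RNA was read on single-colour (Cy3) Agilent mouse arrays, giving 4 RV, 3 LV and 3 septum arrays. The labels give no treatment and neither age nor sex for these animals, and they do not tie arrays to individual hearts, so p-values measure the spread between these samples, which may be partly technical. The arrays lie on 2 slides, with replicates 1 and 2 of each region on slide 1 and RV 3, RV 4, LV 3 and septum 3 on slide 2.

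A level below is the log2 signal of a probe relative to the 75th percentile of its array, so that 0 is a fairly bright probe and negative values are dimmer ones. A difference is between the means of log2 levels of 2 regions, and levels of different probes are not set against each other. A gene was called when limma's test with Benjamini-Hochberg adjustment over all tested probes gave an adjusted p below 0.05. Between 53.7% and 64.0% of non-control spots per array exceeded background clearly and 0 spots were saturated. The 8 cardiomyocyte genes listed, among them Myh6 and Tnnt2, had a mean level of 8.38 to 8.65 on the arrays, and none was called in any comparison. The slides themselves differed: within regions, 43.8% of all probes were called between slide 2 and slide 1. Slide, replicate number and whatever else was shared by samples run together cannot be told apart.

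The sequences just upstream of 3 of these genes are shown first, because RAR and RXR receptors act on genes through paired copies of a short half-site. A direct repeat of 2 half-sites with a spacer of 5 bases, called DR5, is the classical form. The half-sites searched were AGGTCA itself, its variant AGTTCA, the form GGGTCA and the form GGTTCA, on both strands, in the 250 bases before each start site in RefSeq's windows (build GRCm38.p6). A DR5 was present in 0.0883% of all 32851 windows, and a single half-site in 38.6% of them. Of the 9 genes, 6 had 13 windows between them. Rdh10, Aldh1a3 and Crabp2 had none. Rarb alone among the 6 held a DR5, which begins 53 bases before the start site. Its window lies at chr14:16575477-16575726 on the minus strand, and the capitals mark the repeat. The window of Rbp4 at chr19:38125322-38125571, minus strand, belongs to the upstream one of its start sites, and the capitals mark a lone half-site on the opposite strand. The other Rbp4 window, at chr19:38124812-38125061, held none of the half-sites searched and is not shown. The window of Aldh1a2, at chr9:71215539-71215788 on the plus strand, held none of the half-sites searched. Rbp4 and Aldh1a2 are shown because they are the genes called below, and Rarb because of its repeat.
Rarb: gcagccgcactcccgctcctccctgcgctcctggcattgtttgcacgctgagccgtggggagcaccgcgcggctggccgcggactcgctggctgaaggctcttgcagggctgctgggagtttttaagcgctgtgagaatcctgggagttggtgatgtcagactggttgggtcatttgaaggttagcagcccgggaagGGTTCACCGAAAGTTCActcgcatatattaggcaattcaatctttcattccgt
Rbp4: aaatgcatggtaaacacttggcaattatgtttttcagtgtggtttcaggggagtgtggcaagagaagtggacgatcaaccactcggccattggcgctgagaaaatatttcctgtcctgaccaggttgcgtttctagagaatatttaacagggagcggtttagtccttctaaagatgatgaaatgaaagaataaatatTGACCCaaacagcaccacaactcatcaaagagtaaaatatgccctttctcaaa
Aldh1a2: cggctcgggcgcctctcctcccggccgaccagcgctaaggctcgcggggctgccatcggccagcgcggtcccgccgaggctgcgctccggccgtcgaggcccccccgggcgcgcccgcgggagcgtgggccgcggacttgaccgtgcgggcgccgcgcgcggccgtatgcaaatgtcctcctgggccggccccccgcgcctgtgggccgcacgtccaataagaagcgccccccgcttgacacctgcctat
These matches describe letters in a window and say nothing about binding in these samples.

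Rbp4 was higher in RV than in LV, and Aldh1a2 was higher in RV than in septum. No other member was called in any comparison. Against LV, 1 of 8 members was called, where 3.86% of all probes were called and 2.31% higher in RV, and its difference was the largest of the 8. Against septum, 1 of 8 was called, where 2.08% of all probes were called and 1.2% higher in RV. Over all genes tested, the shares called were 4.98% against LV and 2.70% against septum. Between septum and LV, 0 of 8 were called, as was the case for all probes (percent called 0.0), although 3 members had an unadjusted p below 0.05 in limma, 862 of all probes did, and the analysis of variance of the study's methods called 1 member, Rbp4. All 8 members lay above 0 for RV minus LV, with a median difference of 0.30 on the log2 scale beside -0.05 over all genes tested, of which 39.5% lay above 0. For RV minus septum, 7 of 8 lay above 0 beside 40.9% of all genes, with a median of 0.15 beside -0.04. For septum minus LV, 3 of 8 did beside 41.9% of all genes, with a median of -0.05 beside -0.02. These comparisons share arrays and are not independent of each other.

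**Figure D1:**
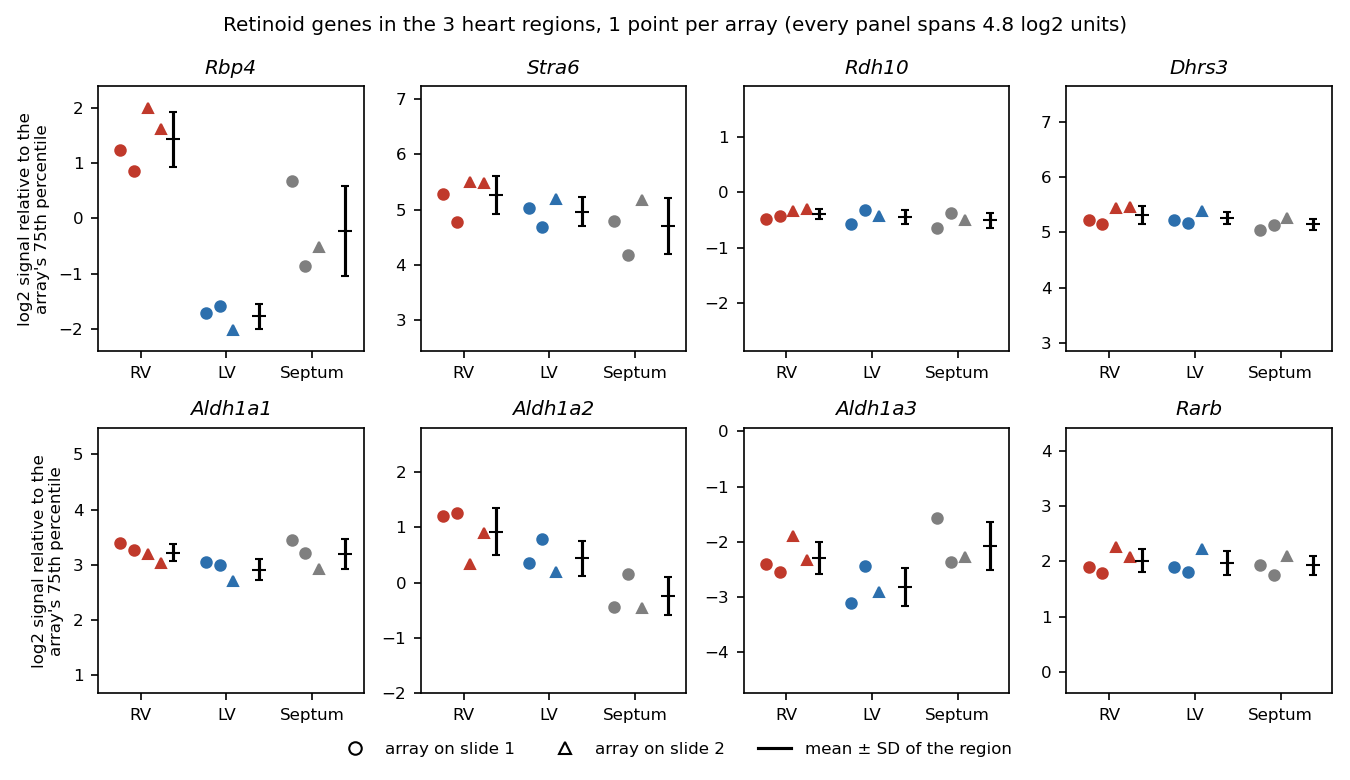
Level of each retinoid gene (y axis, log2 signal relative to the array's 75th percentile) on every RV, LV and septum array (x axis); circles are arrays on slide 1, triangles arrays on slide 2, and bars the mean ± SD of a region. Rbp4 separates all 3 regions, Aldh1a2 separates septum from the others, and the remaining genes overlap between RV and the other regions.

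Rbp4 encodes the plasma carrier of retinol, secreted mainly by liver and also by fat. Its level was 1.24, 0.85, 2.0 and 1.62 on the RV arrays, -1.71, -1.58 and -2.02 on the LV arrays and 0.68, -0.87 and -0.52 on the septum arrays. Every RV array lay above every septum array, and every septum array above every LV array. The RV mean was 1.43 ± 0.50 (SD, n = 4), the LV mean -1.77 ± 0.23 (SD, n = 3) and the septum mean -0.24 ± 0.81 (SD, n = 3). Rbp4 was 9.16-fold higher in RV than in LV, a log2 difference of 3.20 (SE 0.37, 95% interval 2.37 to 4.03, limma adjusted p = 0.00377). This call was kept in all 10 fits that left out 1 array, with differences of 3.0 to 3.39. Within slide 1 the difference was 2.69 and was not called (limma adjusted p = 0.061), and within slide 2 it was 3.83 and was called (limma adjusted p = 0.0312).

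Between RV and septum the Rbp4 difference was 1.66 (SE 0.37, 95% interval 0.83 to 2.49), and it narrowly missed the threshold (limma adjusted p = 0.0584). Blocking on the slide gave 1.65, which was called (limma adjusted p = 0.0375), and without septum 1, the septum array with the highest Rbp4 level, it was 2.12 and called (limma adjusted p = 0.0157). Within slides it was 1.14 on slide 1 and 2.33 on slide 2. For septum minus LV the difference was 1.53 (SE 0.40, 95% interval 0.64 to 2.42), with no overlap of arrays and no call (limma adjusted p = 0.76). Arrays of RV and LV did not overlap for 19.1% of all probes, those of RV and septum for 13.7% and those of septum and LV for 7.0%. The septum was thus intermediate in level, but neither of its own differences from a ventricle passed the test.

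Markers of fat ran in the same order of regions as Rbp4, but not of arrays within the ventricles. The mean level of 8 adipocyte genes was 0.69 to 1.15 on RV arrays, -2.58 to -1.55 on LV arrays and -1.20 to 0.09 on septum arrays, and septum 1 was the highest septum array for both. RV 3 had the highest Rbp4 level of RV (2.0) but the lowest adipocyte mean of RV (0.69). LV 3 had the lowest Rbp4 level of LV (-2.02) but the highest adipocyte mean of LV (-1.55). Of the 8, 6 were called higher in RV than in LV, which are Adipoq, Plin1, Cidec, Retn, Pck1 and Car3. Plin1 and Pck1 passed the background filter through RV alone, the region where they were called higher. Adipoq, which encodes the fat hormone adiponectin, was not well above background on any LV array and was at least 14.5-fold higher in RV. Cidec, a lipid droplet protein of adipocytes, differed by 4.24 (SE 0.45) and Car3, an abundant carbonic anhydrase of fat, by 4.93 (SE 0.51). Of the 8, 3 genes, Plin1, Cidec and Car3, were also called higher in RV than in septum. Leaving out 1 array at a time kept the calls of Cidec and Car3 against LV in all 10 fits and those against septum in 3 of 10, the fits without LV 1, LV 3 or septum 1. Lep, the gene of leptin, and Fabp4, a fatty acid carrier of fat that endothelium also makes, lay at -0.15 and -0.24 for RV minus LV and were not called. Fibroblast genes, 10 in the list, ran in the same order of regions as Rbp4, with mean levels of 3.53 in RV, 3.19 in septum and 2.94 in LV, and all 10 lay above 0 in each of the 3 comparisons. The highest array within each region was the same for the fibroblast mean and Rbp4, namely RV 3, LV 2 and septum 1. Lower arrays of RV and septum ranked differently. Septum 1, without which the RV minus septum difference of Rbp4 was called, was also the array with the highest mean level of 6 atrial muscle genes, 5.60. The part of adipocyte, fibroblast or atrial RNA in the Rbp4 differences was not tested, and in such bulk samples fewer cells of a type and less RNA per cell cannot be told apart.

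Among 7 hepatocyte genes, Alb, Apoa1 and Fgb, which define liver, were too dim to be tested. Of the 4 tested, Ahsg alone was called, 1.93 (SE 0.30) higher in RV than in LV. The mean level of those 4 genes was 0.17 to 0.59 in RV, -0.12 to -0.05 in LV and 0.06 to 0.51 in septum. For RV minus LV 2 of the 4 lay above 0, with a median of 0.07. The other 2 had slightly lower means in RV than in LV, Apoa2 (2.90 against 2.98) and Tat (-1.21 against -1.15).

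**Figure D2:**
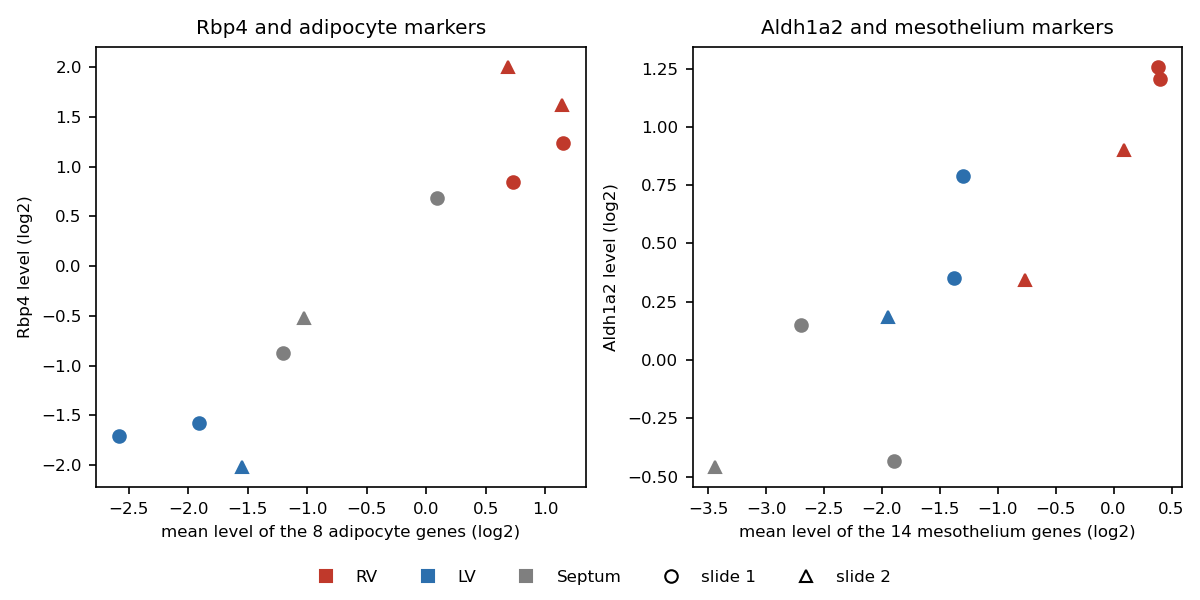
Left, Rbp4 level against the mean level of 8 adipocyte genes; right, Aldh1a2 level against the mean level of 14 mesothelium genes (all axes log2 signal relative to the array's 75th percentile, 1 point per array, colour for region, shape for slide). On the left, RV arrays sit at the upper right and LV arrays at the lower left. On the right, septum arrays sit at the lower left and RV arrays furthest right, while RV 3, at an Aldh1a2 level of 0.34, lies within the LV range of that level.

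STRA6 is a membrane receptor for RBP4 that passes retinol into cells. Stra6 levels were 5.29, 4.77, 5.50 and 5.48 in RV, 5.02, 4.68 and 5.19 in LV and 4.79, 4.17 and 5.17 in septum. Replicate 2 was the lowest array in each region and all regions overlapped. The difference was 0.30 (95% interval -0.28 to 0.87) for RV minus LV, 0.55 (95% interval -0.02 to 1.12) for RV minus septum and -0.25 (95% interval -0.86 to 0.36) for septum minus LV. With the replicate number as a block, RV minus septum was 0.47 and was called (limma adjusted p = 0.0377). RV 4 alone carries its number, so with this block it does not enter the differences between regions.

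RDH10 carries out the step from retinol to retinal. Rdh10 levels spanned -0.65 to -0.30 over all 10 arrays, with an RV mean of -0.39 ± 0.09 (SD, n = 4), an LV mean of -0.45 ± 0.13 (SD, n = 3) and a septum mean of -0.51 ± 0.14 (SD, n = 3). Its differences were 0.06, 0.12 and -0.06 for RV minus LV, RV minus septum and septum minus LV, and the 95% intervals together ran from -0.29 to 0.34.

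DHRS3 works in the opposite direction and its gene is a known target of retinoic acid. The brighter Dhrs3 probe spanned 5.04 to 5.45, and its differences were 0.05, 0.17 and -0.12 in the same order, none called. A dimmer Dhrs3 probe, at -0.71 to -0.41, gave -0.03, 0.09 and -0.12. For both Dhrs3 probes the 95% intervals together ran from -0.37 to 0.41.

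The 3 retinal dehydrogenases differed in their pattern. Aldh1a2 levels were 1.21, 1.26, 0.34 and 0.90 in RV, 0.35, 0.79 and 0.19 in LV and -0.43, 0.15 and -0.46 in septum. All septum arrays lay below all arrays of both ventricles, while RV 3 lay within the LV range. Region means were 0.93 ± 0.42 (SD, n = 4), 0.44 ± 0.31 (SD, n = 3) and -0.25 ± 0.34 (SD, n = 3).

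Aldh1a2 was 2.25-fold higher in RV than in septum, a log2 difference of 1.17 (SE 0.25, 95% interval 0.61 to 1.74, limma adjusted p = 0.0489). That call stood at the edge of the threshold. Leaving out 1 array at a time lost it in 9 of 10 fits and kept it without RV 3 (difference 1.37, limma adjusted p = 0.0181), with differences of 1.06 to 1.37 over the 10 fits. It was 1.37 within slide 1 and 1.08 within slide 2, neither called, and 1.25 with the slide as a block, which was called (limma adjusted p = 0.00633). RV minus LV was 0.48 (95% interval -0.08 to 1.05, limma adjusted p = 0.33). Septum minus LV was -0.69 (95% interval -1.29 to -0.09), with an unadjusted limma p of 0.0288 that adjustment took to 1.

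Markers of mesothelium ran in the same order of regions as Aldh1a2. Their mean level over 14 genes was -0.76 to 0.40 in RV, -1.94 to -1.30 in LV and -3.44 to -1.90 in septum, so that septum was the lowest region for both, and RV 3 was the lowest RV array for both. LV arrays also ranked alike, but septum arrays did not. Septum 1 had the highest septum mean of these markers (-1.90) at an Aldh1a2 level of -0.43. Septum 2, with the highest septum Aldh1a2 level (0.15), had a marker mean of -2.70. Of the 14, 11 were called higher in RV than in septum, including Msln, the surface protein mesothelin, with a difference of 3.96 (SE 0.69), and Lrrn4, with 4.29 (SE 0.65). With 1 array left out, the call of Msln was kept in 5 of 10 fits and that of Lrrn4 in 8 of 10, and both were lost without septum 2 or septum 3. Against LV 2 of the 14 were called higher in RV, the keratin gene Krt18 and the claudin gene Cldn3. Lrrn4, Cldn3 and Bnc1 of this list passed the background filter through RV alone. The lowest RV minus septum difference of the 14 was 0.06, for Tbx18, with mean levels of -0.19 in RV, -0.24 in septum and -0.47 in LV. Unlike Aldh1a2, 2 of the 14 lay above 0 for septum minus LV, Tbx18 and Cldn3, the latter well above background on 0 LV and 0 septum arrays. No defining mesothelial gene was below background throughout, since all 14 were well above it on every RV array. The 10 fibroblast genes had mean levels of 3.24 to 3.81 in RV, 2.81 to 3.11 in LV and 3.06 to 3.3 in septum, so that septum did not lie below LV as it did for Aldh1a2, with 3 called in RV against LV and 1 against septum. The part of mesothelial or fibroblast RNA in the Aldh1a2 difference was not tested.

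Aldh1a1 was at 3.39, 3.27, 3.19 and 3.04 in RV, 3.05, 3.0 and 2.70 in LV and 3.45, 3.21 and 2.92 in septum. RV and LV overlapped by RV 4 and LV 1 alone. RV minus LV was 0.31 (SE 0.14, 95% interval -0.01 to 0.63, limma adjusted p = 0.271) and was not called. With a block the same difference was called, at 0.36 with the slide (limma adjusted p = 0.0181) and 0.37 with the replicate (limma adjusted p = 0.0287), and it was 0.31 within slide 1 and 0.41 within slide 2. RV minus septum was 0.03 (95% interval -0.29 to 0.35) and septum minus LV 0.28 (95% interval -0.06 to 0.62).

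Aldh1a3 was at -2.40, -2.55, -1.89 and -2.33 in RV, -3.11, -2.43 and -2.92 in LV and -1.58, -2.37 and -2.28 in septum. It was well above background on all 10 arrays. Every septum array lay above every LV array, and septum minus LV was 0.74 (95% interval 0.17 to 1.31), with an unadjusted limma p of 0.0163 that adjustment took to 1. RV minus LV was 0.52 (95% interval -0.01 to 1.06) and RV minus septum -0.22 (95% interval -0.76 to 0.31), neither called. Septum 1 had the highest Aldh1a1 and Aldh1a3 levels of all arrays, and also the highest mean level of 6 atrial muscle genes, 5.60, where the other septum arrays had 3.9 and 2.80, RV 1.93 to 3.64 and LV 1.58 to 2.99. The part of atrial tissue in these levels was not tested.

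**Figure D3:**
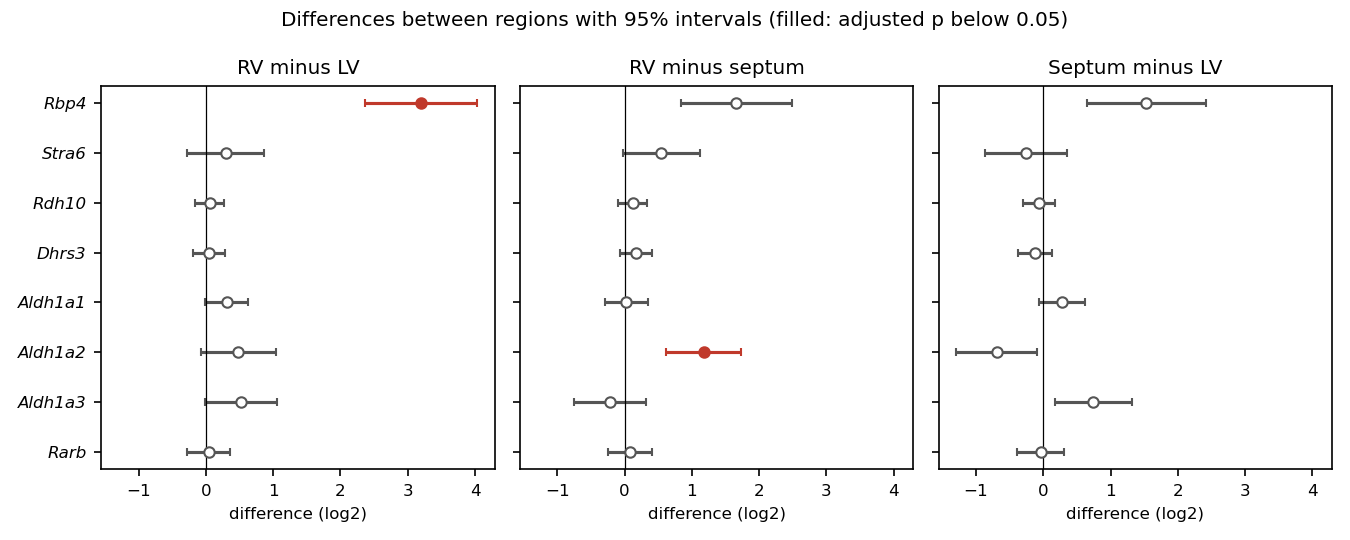
Difference in log2 level (x axis) with its 95% interval for each retinoid gene (y axis) in RV minus LV, RV minus septum and septum minus LV; filled red points passed an adjusted p of 0.05. Rbp4 passed in the first panel and Aldh1a2 in the second, and intervals of Rarb, Rdh10 and Dhrs3 include 0 in all panels.

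RARB is a receptor for retinoic acid, and its gene, with the DR5 printed above, is a classical readout of the signal. The brightest Rarb probe was at 1.90, 1.79, 2.26 and 2.08 in RV, 1.89, 1.80 and 2.22 in LV and 1.93, 1.76 and 2.10 in septum. The regions had nearly the same range. Differences were 0.04 for RV minus LV, 0.08 for RV minus septum and -0.04 for septum minus LV, with 95% intervals that together ran from -0.39 to 0.40. A second Rarb probe, for another transcript, gave 0.20, 0.16 and 0.03, and a further one was well above background on 5 of 10 arrays and was not tested.

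Rarb followed the slide instead. Its brightest probe was at 1.76 to 1.93 on slide 1 and at 2.08 to 2.26 on slide 2, with no overlap, and within regions slide 2 was 0.32 higher (SE 0.06, limma adjusted p = 0.00383). The second Rarb probe gave 0.24 (SE 0.10) and was not called. The brighter Dhrs3 probe was likewise 0.22 higher on slide 2 (SE 0.04, limma adjusted p = 0.00522) without overlap, and the dimmer one was not called. Stra6 was 0.49 higher (SE 0.15, limma adjusted p = 0.0293) and its slides overlapped. Aldh1a1 and Aldh1a2 were called in the other direction, at -0.30 (SE 0.07) and -0.46 (SE 0.16). Of the 8 members, 5 were called between slides, 3 higher and 2 lower on slide 2, where 43.8% of all probes were called, 19.6% higher and 24.2% lower. Rbp4, Rdh10 and Aldh1a3 were not called between slides.

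The other genes of the pathway formed 5 lists by role, 64 genes in all, of which 40 were bright enough to be tested. Between RV and LV 3 of the 40 were called, 2 of them higher in RV, a share of 7.5% where 4.98% of all genes tested were called, with a median difference of -0.02 beside -0.05 over all genes. Between RV and septum 1 was called, higher in RV, a share of 2.5% beside 2.70% of all genes, with a median of 0.0047 beside -0.04. Both shares are near those over all genes. Between septum and LV 0 were called by limma, 3 had an unadjusted p below 0.05, and the median was -0.03 beside -0.02. Of 16 tested genes of synthesis and storage, Aldh1a7 was called in RV minus LV. Of 4 of transport and binding, Lrp2 was called against septum. Of 13 receptors and coregulators, Rxrg was called against LV, and of 6 target genes, Meis2 was called against LV. Of the degrading enzymes Cyp26a1, Cyp26b1 and Cyp26c1, Cyp26b1 was the gene bright enough to be tested and it was not called.

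**Figure D4:**
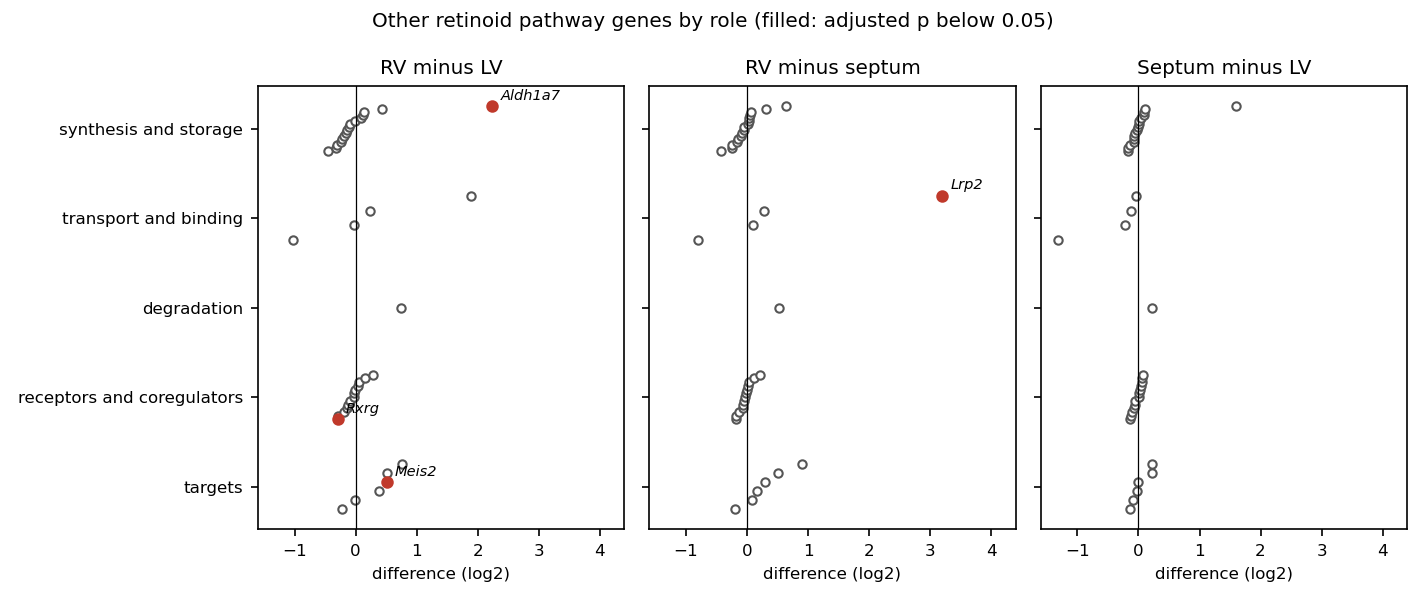
Difference in log2 level (x axis) of 40 other retinoid pathway genes, grouped by role (y axis), in RV minus LV, RV minus septum and septum minus LV; each point is a gene and filled, named points passed an adjusted p of 0.05. Calls are few and lie to the right of 0 except for Rxrg, and the receptors and coregulators lie close to 0 in all panels.

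Rxrg, an RXR receptor of muscle, fell by 0.29 in RV against LV (SE 0.06, limma adjusted p = 0.0356), with levels of 4.50 to 4.58 in RV and 4.78 to 4.86 in LV. Leaving out any 1 array lost the call, and over these 10 fits the difference was -0.31 to -0.27. Meis2, a homeobox gene that responds to retinoic acid in limb development, was 0.51 higher in RV (SE 0.11, limma adjusted p = 0.0422). Its call was kept in 2 of 10 such fits, those without RV 2 and without septum 3. Each of the 4 other scalings and background corrections lost the call of Rxrg (limma adjusted p = 0.0583 to 0.137). Scaling by the median also lost that of Meis2 (limma adjusted p = 0.172).

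Aldh1a7 and Lrp2, the other called genes, were dim. Both passed the background filter through RV alone, the region where they were then called higher. Without a filter on dim probes neither was called (limma adjusted p = 0.0782 for Aldh1a7 against LV and 0.0583 for Lrp2 against septum). Aldh1a7, a close relative of Aldh1a1, was well above background on 4 RV, 0 LV and 2 septum arrays and was at least 2.23-fold higher in RV than in LV (limma adjusted p = 0.0191, lost without LV 1 or LV 2). Aldh1a1 and Aldh1a7 are closely similar copies of each other, and whether their probes share signal was not tested. Lrp2, the endocytic receptor megalin, was well above background on 4 RV, 1 LV and 0 septum arrays and was at least 3.28-fold higher in RV than in septum (limma adjusted p = 0.0135, lost without septum 2 or septum 3). With normexp background correction the log2 differences of these genes shrank from 2.24 to 0.80 for Aldh1a7 and from 3.20 to 1.46 for Lrp2, and both were still called.

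More pathway genes were called with a block. With the slide as a block, 14 of 40 were called between RV and LV, 6 higher and 8 lower in RV, where 17.6% of all probes were called (7.24% higher and 10.4% lower), and 5 between RV and septum, where 8.74% were. Blocking on the replicate number, which takes RV 4 out of the differences, gave 15 and 4, beside 14.9% and 7.12% of all probes. These shares are over probes, whereas the 40 are genes, each represented by its brightest tested probe. Without a block the probe shares were 3.86% against LV and 2.08% against septum. Rbp7 and Rarres2 among the pathway genes were picked after their values were seen. Rbp7, a retinol carrier of endothelium and fat, lay lower in RV than in both other regions without overlap. Its RV minus LV was -1.03 (SE 0.26, limma adjusted p = 0.0639) without a block, whereas blocking on the replicate number gave -1.02, which was called (limma adjusted p = 0.0116). Rarres2, which encodes chemerin, differed by 0.76 against LV and 0.90 against septum without a call, and by 0.86 and 1.0 with the slide as a block, both called (limma adjusted p = 6.5e-04 and 3.14e-04).

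Cyp26b1, also picked after its values were seen, degrades retinoic acid and its gene is induced by it. Its level was 0.53 and 0.32 on RV 1 and RV 2 but 4.69 and 3.21 on RV 3 and RV 4. It was 0.81 and 0.51 on LV 1 and LV 2 and 3.02 on LV 3, and 1.13 and 0.84 on septum 1 and septum 2 and 3.03 on septum 3. Every region was thus low on slide 1 and high on slide 2. Within regions slide 2 was 6.82-fold higher, a difference of 2.77 (SE 0.34, limma adjusted p = 6.81e-04). No regional difference of Cyp26b1 was called. Without a block the interval for RV minus LV ran from -1.77 to 3.24, so that a change of several fold was not detectable in that fit. With the slide as a block RV minus LV was 0.28 (limma adjusted p = 0.663) and RV minus septum 0.06 (limma adjusted p = 0.944). RV minus LV was -0.24 within slide 1 and 0.93 within slide 2.

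Of the 40 pathway genes, 23 were called between slides, 16 higher and 7 lower on slide 2, where 43.8% of all probes were called, 19.6% higher and 24.2% lower. Of the 40, 11 did not overlap between slides, as 26.1% of all probes did not. Rarg, another retinoic acid receptor, was at 2.03 to 2.21 on slide 1 and 3.03 to 3.26 on slide 2, a difference of 0.93 (SE 0.05, limma adjusted p = 9.38e-05). Rara and Rxra were higher on slide 2 by 0.20 (SE 0.05) and 0.24 (SE 0.06), also without overlap. Adh1, an alcohol dehydrogenase that oxidises retinol, and Aldh8a1, a retinal dehydrogenase, were lower on slide 2, with differences of -0.90 (SE 0.08) and -1.08 (SE 0.12). Rarg, Rara, Rxra, Adh1 and Aldh8a1 were picked here after their values were seen.

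**Figure D5:**
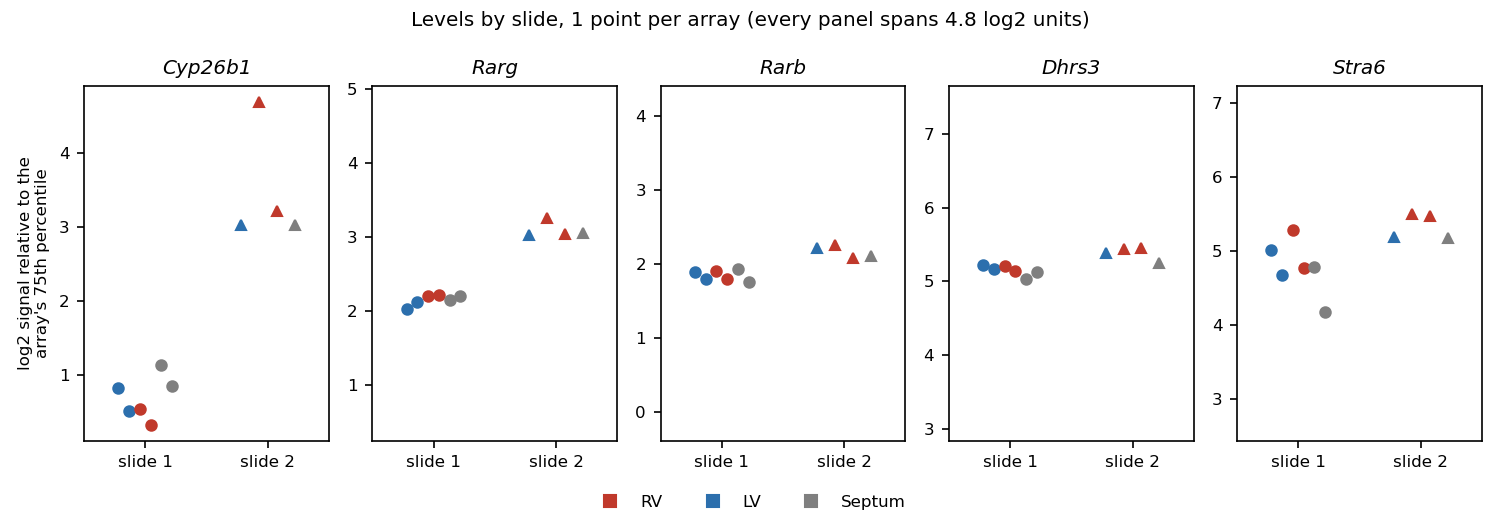
Levels (y axis, log2 signal relative to the array's 75th percentile) of Cyp26b1, Rarg, Rarb, Dhrs3 and Stra6 on the 6 arrays of slide 1 and the 4 arrays of slide 2 (x axis), coloured by region. Cyp26b1, Rarg, Rarb and Dhrs3 do not overlap between slides, whereas Stra6 does, and in Cyp26b1 all 3 regions lie at 0.32 to 1.13 on slide 1 and 3.02 to 4.69 on slide 2.

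The genes most like the called members were sought among 14617 genes by Pearson's r over the 10 arrays. For Rbp4 they included Vim, an intermediate filament gene of non-muscle cells (r = 0.985), and Alcam, a cell adhesion molecule (r = 0.983). For Aldh1a2 they were C3, the central complement component (r = 0.945), Pfkfb1, a regulator of glycolysis (r = 0.943), and Cldn15, a claudin (r = 0.938). After region means were removed, r was 0.869 and 0.954 for the genes listed with Rbp4 and 0.898, 0.924 and 0.860 for those listed with Aldh1a2. These are descriptions over arrays that share slide, array scale and tissue make-up, and the highest of many r values is high by selection.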

How the data were processed

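Total RNA of RV, LV and septum from C57BL/6N mice was measured on 10 single-colour Agilent arrays, grouped by sample title. The authors deposited spot intensity values made with Agilent Feature Extraction (version 11.5.1.1), background-subtracted and detrended but not scaled between arrays, and a table of log2 values made with GeneSpring. Column medians of that table were -3.13 to -2.89, no centring of genes was found, and 100% of its 56605 probes lay within 0.05 of the values computed here once a constant per array was removed. Its log2 scale, centring and direction are thereby known.

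Here control and outlier spots were left out, log2 of the processed signal was averaged per probe, and each array's 75th percentile was subtracted. A probe was tested if well above background on every array of a region (30234 probes, 53.4%). Probes were named by RefSeq accession (32989 of 56605, 58.3%). The array design names another build than the gene table (GRCm38.p6), so probe coordinates are not given. A gene with several tested probes was represented by that with the highest mean level. One mean per region was fitted with limma (version 3.58.1, R 4.3.3; prior degrees of freedom 2.46), two-sided, with Benjamini-Hochberg adjustment over all tested probes and a call at 0.05. The fits were tested on simulated data with independent noise per array and no slide effect, so that test does not cover shared slides. A bound ("at least") sets the bright group's mean against the dim group's, with each dim array raised to its lowest signal well above background. It holds for the means of the processed signal as scaled here. It carries no interval, is not a confidence limit, and other background corrections can give smaller differences. The number of arrays limits the precision.

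Named genes were all members, the pathway genes called in any comparison, the 3 genes most correlated with each called member, and those markers needed to describe a list's range and its defining genes, apart from those said to be picked later. The members, pathway lists and marker lists (cardiomyocyte, mesothelium, adipocyte, fibroblast, endothelium, mural, atrial, macrophage and hepatocyte) were chosen with earlier results of these data known. Some genes that these rules select are not reported here, and the list counts leave them out. Of the lists not described above, endothelium had 1 gene called in RV minus LV and 0 in RV minus septum, and mural and macrophage lists had 0 called in both. Same-numbered arrays of different regions deviated together from their region means (r = 0.359 to 0.645 over 9 pairs) and also share a slide. Blocked values are therefore given where they change a member's call. For pathway genes whose call changed, counts are given, with some values for Rbp7 and Rarres2. With the replicate number as a block RV 4, alone in its number, does not enter the differences. The mean-signal column was absent from the files used here, and the median spot signal was used for normexp. The alternatives were 4 other scalings and background corrections, the authors' table, 2 other filters, slide and replicate blocks, each slide alone, 2 regions alone, the methods' analysis of variance with Tukey's correction, other probes and leaving out each array.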

Additional observations from a re-analysis of the deposited data

How the results depend on the processing

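With few arrays, calls near the threshold moved with the settings while directions mostly held. The count of members called between RV and LV, 1 as reported, was 2 with the slide or the replicate number as a block and 0 on slide 1 alone. Between RV and septum it was 2 with normexp background correction, either block or the methods' analysis of variance at its own threshold, 0 with quantile normalization, no filter, slide 1 alone or the 2 regions alone, and 0 to 1 in fits leaving out 1 array. Between septum and LV the methods' analysis of variance called 1, also after Benjamini-Hochberg adjustment. Pathway genes called between RV and LV, 3 as reported, were 14 with the slide block and 15 with the replicate block, 0 with no filter, 1 on slide 2 alone or with the 2 regions alone and 0 to 2 leaving out 1 array. Between RV and septum, 1 as reported, they were 5 and 4 with these blocks, 2 with scaling by the median, 0 with no filter or with probes well above background on all arrays, and 0 to 1 leaving out 1 array. The cause of these moves was not tested, apart from fewer samples where arrays were left out.

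The differences that changed sign were all uncalled. On slide 1 alone they were Aldh1a1 RV minus septum (-0.00119), Rdh10 (-0.00969) and Dhrs3 (-0.0199) RV minus LV, and Cyp26b1 RV minus LV (-0.24) and RV minus septum (-0.56). On slide 2 alone they were Aldh1a3 RV minus septum (0.16) and Rarb RV minus LV (-0.0461), the latter also with the slide block (-0.014). Another probe turned Dhrs3 RV minus LV (-0.0296) and Rarb septum minus LV (0.035). Leaving out 1 array gave ranges across 0 for RV minus LV of Rdh10 (-0.0089 to 0.12), Rarb (-0.045 to 0.16) and Cyp26b1 (-0.096 to 1.53). It did so for RV minus septum of Aldh1a1 (-0.11 to 0.15), Aldh1a3 (-0.37 to 0.029), Rarb (-0.0075 to 0.17) and Cyp26b1 (-0.31 to 1.20). It did so for septum minus LV of Rdh10 (-0.13 to 0.011), Stra6 (-0.48 to 0.017), Rarb (-0.13 to 0.084), Cyp26b1 (-0.46 to 1.01) and Rarres2 (-0.33 to 0.0804). Alternatives were run for the members, the called pathway genes, Cyp26b1, Rbp7, Rarres2 and the markers Adipoq, Cidec, Car3, Msln, Lrrn4 and Upk3b, and not for other genes named. Over these, 1257 differences kept their sign and side of the threshold, 101 lost a call, 38 gained one and 29 changed sign. Dim genes such as Aldh1a7 and Lrp2 are limited by signal over background. The replicate block changed no member's call beyond Aldh1a1 and Stra6, named in the report.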
